A study of Drosophila melanogaster with 12 samples.

Results

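Heads of conditioned flies were compared with heads of non-conditioned flies 24 h after the procedure. The comparison uses the arrays that the labels place in these groups, 3 of conditioned and 3 of non-conditioned heads, so 6 of the 12 arrays of the series. The other 6 arrays, taken at 0 h, entered the fit only to estimate the spread and to compare the effect of conditioning between the times. Each array measured total RNA of whole heads of Drosophila melanogaster on an Affymetrix Drosophila chip. The labels call the treatment a behavioural stimulus and give every group the word OR without expanding it. How the flies were conditioned, and their sex and age, is not stated there. Conditioned replicate 2 is described as a biological duplicate of another conditioned array, and the labels do not say whether the remaining arrays came from separate flies. The p-values therefore rest on a spread between arrays that may in part be technical. Replicate numbers follow the order of the series and pair no arrays across groups.

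The head of a fly holds the brain and the eyes together with glia, muscle, blood cells and a fat body that wraps the brain. In the fly brain, associative memory is known to depend on cAMP signalling and on transcription and translation that follow training. The head fat body makes secreted proteins, among them antimicrobial peptides under control of the Toll and Imd pathways, and the molecular clock runs in clock neurons, photoreceptors, glia and fat body. In whole-head RNA, fewer cells of a type and less RNA per cell cannot be told apart.

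The deposited values are linear intensities, 1 for each probe set and array. A probe set is a group of short probes against 1 transcript region. After removal of 183 control probe sets from 18952, the brighter 60% of the others, 11261 probe sets, were tested on a scale of log2(intensity + 16), which understates differences of dim probe sets. All differences below are conditioned minus non-conditioned on that scale, with their standard error, and intensities are given as deposited. Levels are compared only within a probe set, since the intensities of different probe sets have no common scale.

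Summed marker intensities of neurons and of glia overlapped between the groups, and each sum mostly reflects its brightest probe sets. The summed intensity of 5 neuronal markers, among them elav and nSyb, was 3188 to 3267 in conditioned and 3101 to 3445 in non-conditioned heads. For 5 glial markers the sums were 5831 to 6169 in conditioned and 5712 to 6418 in non-conditioned heads, with Gs2 by far the brightest. Among these 5, repo was lower in every conditioned array, at 338 to 370 against 372 to 427, and the other glial markers overlapped. Photoreceptor markers, with 3 of 5 listed genes named alone by a probe set, summed to 11472 to 12688 in conditioned and 10697 to 14080 in non-conditioned heads. Muscle markers summed to 1173 to 1213 in conditioned and 1177 to 1339 in non-conditioned heads, and haemocyte markers to 1157 to 1224 in conditioned and 1069 to 1173 in non-conditioned heads. Head fat body markers, which include the yolk protein genes given below, differed more, with 13327 to 32430 in conditioned and 11443 to 16159 in non-conditioned heads. Markers of tissues outside the head were near the low end of the scale: 4 ovary markers summed to 7 to 21 in conditioned and 18 to 29 in non-conditioned heads, 4 gut markers to 39 to 52 in conditioned and 43 to 65 in non-conditioned heads, and 6 markers of male accessory gland and testis to 15 to 26 in conditioned and 23 to 32 in non-conditioned heads.

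Conditioned replicates 1 and 2 stood apart from the other 4 arrays in the yolk protein genes, which encode the egg yolk precursors that the fat body and ovary of female flies secrete. Yp1, on chromosome X, had intensities of 5026, 6653 and 20.8 in conditioned heads, against 12.6, 14.8 and 7.47 in non-conditioned heads. Yp2, also on X, had 3377, 5498 and 26.4 in conditioned heads, against 8.69, 11.5 and 6.76 in non-conditioned heads. Yp3 had 4065, 5560 and 230 in conditioned heads, against 239, 232 and 206 in non-conditioned heads. Replicates 1 and 2 were thus bright in all 3 genes, and conditioned replicate 3 lay close to or among the non-conditioned arrays. The differences were 5.29 ± 1.82, 5.22 ± 1.53 and 2.88 ± 0.92 for Yp1, Yp2 and Yp3, with unadjusted limma p of 0.0106, 0.0037 and 0.00678 and an adjusted p of 0.999 each. Of the 6 arrays at 0 h, conditioned replicate 3 had Yp1 at 4532 and the other 5 had 17.6 or less. Without these 3 arrays, which leaves conditioned replicate 3 alone in its group at 24 h, the differences at 24 h were 0.61, 0.69 and 0.19.

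At 24 h some other transcripts were also brightest in conditioned replicates 1 and 2. The gene fit, a fat body gene named for its female-specific expression, had 1375, 1946 and 527 in conditioned heads, against 749, 609 and 604 in non-conditioned heads, a difference of 0.77 ± 0.32 that became -0.24 without the 3 arrays. At 0 h fit did not set the array with yolk signal apart, with 427, 617 and 628 in conditioned replicates 1 to 3, against 371, 162 and 243 in non-conditioned heads. Obp99a, which encodes an odorant binding protein, had 142, 259 and 70.7 in conditioned heads, against 64.9, 86.9 and 80.6 in non-conditioned heads. Its difference was 0.74 ± 0.26, and -0.10 without the 3 arrays. For Obp56e, of the same family, the values were 416, 467 and 244 in conditioned heads and 271, 269 and 278 in non-conditioned heads, a difference of 0.39 ± 0.15 and of -0.20 without the 3 arrays. In each of these genes conditioned replicate 3 lay below or within the non-conditioned range. The fat body genes Lsp2, which encodes a larval serum storage protein, and apolpp, which encodes the apolipoprotein of lipid transport, did not follow the pattern. Lsp2 had 5526, 6377 and 6159 in conditioned heads, against 5189, 7806 and 6348 in non-conditioned heads. Intensities of apolpp were 5722, 6397 and 6364 in conditioned heads and 5245, 7485 and 6242 in non-conditioned heads. At 24 h both arrays with yolk signal also have a # in the title, which conditioned replicate 3 lacks. Non-conditioned replicates 1 and 2 at 24 h have the # without yolk signal. At 0 h the array with yolk signal, conditioned replicate 3, lacks the #, which conditioned replicates 1 and 2 have. The part of the arrays with yolk signal in the other results at 24 h was not tested. Of the 129 probe sets named by the rule for this comparison, 44 had a difference over 1.5 times smaller without the 3 arrays, 12 one over 1.5 times larger, and 14 turned sign. The other 59 kept their sign and stayed within that factor. Most of the 129 were chosen by p-values to which the removed arrays contributed, so the choice itself favours smaller differences after removal. The same counts were not made over all probe sets, and these cannot show what the arrays with yolk signal contribute.

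**Figure D1:**
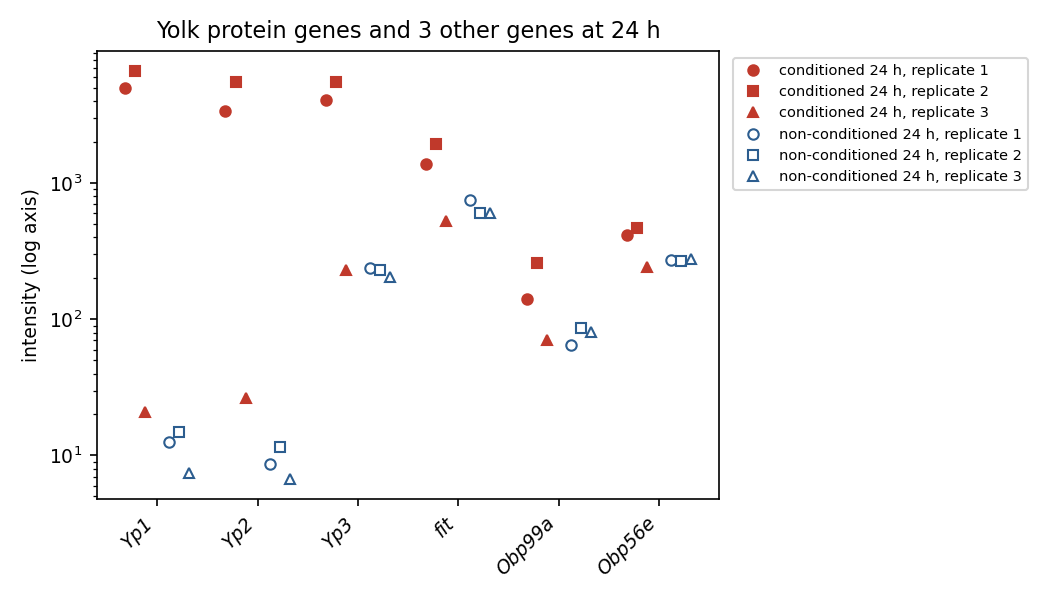
Deposited intensity (log axis) of the 3 yolk protein genes, fit, Obp99a and Obp56e in each of the 3 conditioned (filled) and 3 non-conditioned (open) arrays at 24 h, 1 point per array. Conditioned replicates 1 and 2 lie above every other array in all 6 genes, while replicate 3 lies near the non-conditioned arrays, as at 230 against 206 to 239 in Yp3.

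Across the table, no probe set passed an adjusted p of 0.05 at 24 h (0 of 11261 with limma, 0% of those tested). Without conditioned replicate 3 there were 6 such probe sets, which read Yp1, Yp2, Yp3, Obp99a, Obp56e and a transcript without a gene name here. Without conditioned replicate 1, or without non-conditioned replicate 3, there were 2, and with the # arrays alone there were 8. At an unadjusted p under 0.05 there were 251 probe sets (2.23%) higher and 237 (2.10%) lower in conditioned heads, 488 (4.33%) in all. The 3 conditioned arrays lay above the 3 non-conditioned arrays in 598 probe sets (5.31%) and below them in 581 (5.16%). The median difference was 0.0001, and the 5th and 95th percentiles were -0.18 and 0.19. Differences of more than 2-fold were seen in 9 probe sets that were higher and 1 that was lower in conditioned heads. Of the 9, the groups did not overlap in 5. The 95% interval of the difference lay within 2-fold either way for 11223 probe sets (99.7%) and within 1.5-fold for 10740 (95.4%). On the scale used, differences beyond 1.5-fold were thus outside the interval for most probe sets tested. Because that scale understates differences of dim probe sets, it sets no such limit on the expression of dim transcripts. The interval reached a median of 0.20 to either side of the estimate.

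The arrays of a group were nearly as far apart as arrays of different groups. Correlations of log2 values were 0.9915 to 0.9952 for the 6 pairs within groups and 0.9907 to 0.9947 for the 9 pairs between groups. The closest pair was conditioned replicates 1 and 2, at 0.9952. On principal components of the 6 arrays, the first (30.6% of the variance) put these 2 replicates at 9.29 and 12.87, conditioned replicate 3 at -0.82 and the non-conditioned arrays at -8.40, -9.24 and -3.70. The second, with 23.9%, separated non-conditioned replicates 1 and 2, at -12.19 and 13.32, and left the conditioned arrays between -1.47 and 1.12. The third, with 18.3%, had the 2 arrays without a # in the title at -11.38 and -6.10 and the other 4 between 2.60 and 6.92. The median standard deviation within a group was 0.08 in conditioned and 0.108 in non-conditioned heads.

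The lowest adjusted p, 0.108, was shared by 4 probe sets: DptB, 1 probe set of lola, and 2 that the annotation used here does not name. The next lowest, 0.285, belonged to another probe set without a gene name. For the genes described in the following paragraphs the adjusted p was 0.999 unless another value is given. Counts in gene lists at an unadjusted p under 0.05 stand beside 2.23% higher and 2.10% lower over all probe sets. Counts of genes without overlap stand beside 5.31% higher and 5.16% lower.

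**Figure D2:**
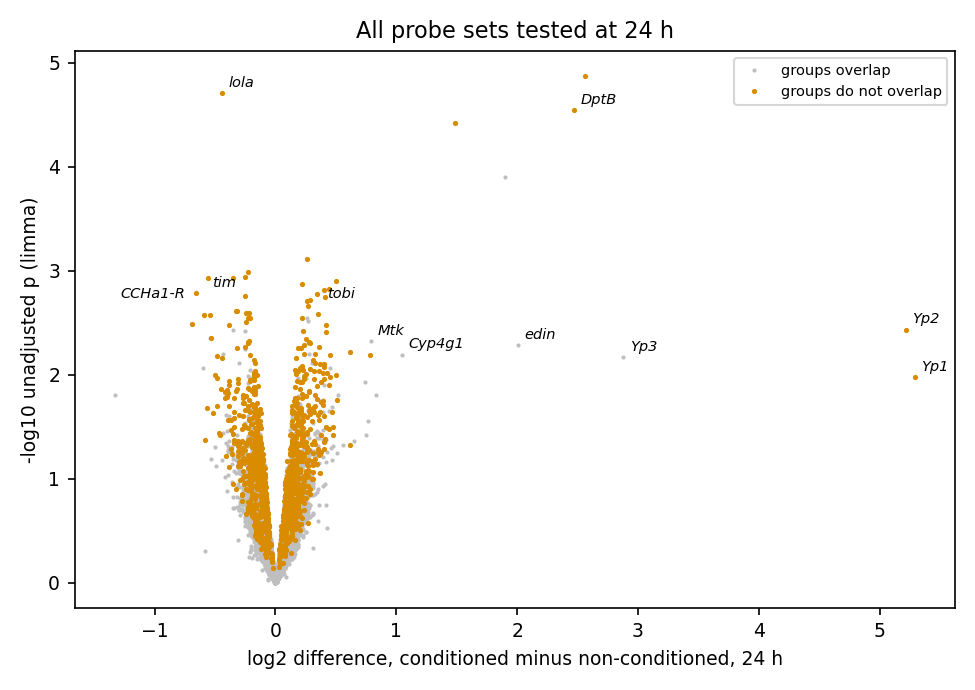
Difference at 24 h (conditioned minus non-conditioned, log2, x axis) against -log10 of the unadjusted limma p (y axis) for the 11261 probe sets tested; orange points are probe sets whose 3 conditioned and 3 non-conditioned arrays do not overlap. DptB at 2.47, a lola probe set at -0.44 and 2 unnamed probe sets lie highest, and the yolk protein genes at 2.88 to 5.29 lie far to the right at larger p.

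Among named genes, the largest differences outside the yolk genes were those of the antimicrobial peptide genes DptB, at 2.47, and edin, at 2.01. The gene Cyp4g1, at 1.05, came before the other peptide genes. Of 30 listed peptide genes, 17 had a probe set annotated with that gene alone, and 13 were tested. The others may be on the array without a name or under a shared one. Of the 13, 6 had an unadjusted p under 0.05 and were higher in conditioned heads, where 2.23% of all probe sets were, and 0 were lower. In 3 genes, DptB, Def and CecB, all conditioned arrays lay above all non-conditioned arrays, as they did in 5.31% of all probe sets. The median difference of the 13 was 0.197, beside 0.0001 for all probe sets, and 9 lay above 0 and 4 below. None passed over all probe sets.

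Many of the listed peptides act against bacteria or fungi, and many of their genes are known targets of the Imd pathway, the Toll pathway or both. DptB, on chromosome 2R, encodes diptericin B, an antibacterial peptide used as a readout of Imd signalling. Its intensities were 609, 1198 and 1399 in conditioned heads, against 147, 47.5 and 597 in non-conditioned heads. The lowest conditioned array was only just above the highest non-conditioned one, and the non-conditioned arrays ranged from 47.5 to 597. The difference was 2.47 ± 0.42, with a 95% interval of 1.57 to 3.37 (unadjusted p = 2.88e-05, adjusted p = 0.108). With the arrays carrying a # in the title alone it was 3.10 (adjusted p = 0.00148), and without non-conditioned replicate 3 it was 3.23 (adjusted p = 0.000609). Both settings leave out non-conditioned replicate 3, the array at 597. No setting that kept this array gave DptB an adjusted p under 0.05. The difference was 1.80 without non-conditioned replicate 2 and 2.04 without the 3 arrays with yolk signal.

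The gene edin, induced in infected flies, had 42.8, 107 and 239 in conditioned heads, against 5.36, 6.34 and 43.3 in non-conditioned heads. Its groups met at 42.8 and 43.3, the dimmest conditioned and the brightest non-conditioned array. The difference was 2.01 ± 0.62 (interval 0.70 to 3.33), and it had an adjusted p of 0.0198 when the 6 arrays at 24 h were fitted alone. Mtk, which encodes the antifungal and antibacterial peptide metchnikowin, had 2853, 3787 and 3472 in conditioned heads, against 1952, 1029 and 3563 in non-conditioned heads. Non-conditioned replicate 3 lay within the conditioned range, and the other two lay below it. The difference of Mtk was 0.79 ± 0.24, and 0.39 without non-conditioned replicate 2, 1.19 without non-conditioned replicate 3 and 0.32 without the 3 arrays with yolk signal.

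Def, CecB and Listericin also had positive differences. Def, which encodes defensin, had 20.5, 17.2 and 25.2 in conditioned heads, against 9.87, 2.59 and 12.5 in non-conditioned heads, a difference of 0.62 ± 0.29. CecB, a cecropin gene, had 33.7, 32.7 and 67.6 in conditioned heads, against 27.4, 21.5 and 30.1 in non-conditioned heads, a difference of 0.48 ± 0.21. Listericin, which encodes a peptide active against Listeria, had 418, 444 and 502 in conditioned heads, against 260, 421 and 430 in non-conditioned heads, a difference of 0.31 ± 0.13. In all 3 genes non-conditioned replicate 3 was the brightest array of its group, and in Def and CecB replicate 2 was the dimmest. Without the arrays with yolk signal the differences were 0.66, 0.63 and 0.37 for Def, CecB and Listericin.

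The other tested peptide genes, several of them known mainly as Toll targets, are given here without a test between classes. Drs, which encodes the antifungal peptide drosomycin, had 1656, 1061 and 814 in conditioned heads, against 1146, 584 and 2075 in non-conditioned heads. All conditioned arrays lay within the non-conditioned range, and the difference was 0.01 ± 0.32 with a wide interval of -0.67 to 0.70. It was -1.03 without the arrays with yolk signal, and without 1 array of 24 h at a time it lay between -0.43 and 0.49. The bomanin genes, which encode short secreted peptides needed for Toll-dependent defence, had narrower intervals. For BomS2 the values were 4367, 4736 and 4678 in conditioned heads and 3967, 4382 and 5109 in non-conditioned heads, a difference of 0.04 with an interval of -0.14 to 0.22. BomBc3 and BomBc2 had differences of 0.20 ± 0.10 and -0.11 ± 0.08. The drosomycin-like genes Drsl5, Drsl4 and Drsl1 had differences of -0.03, -0.06 and -0.13.

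**Figure D3:**
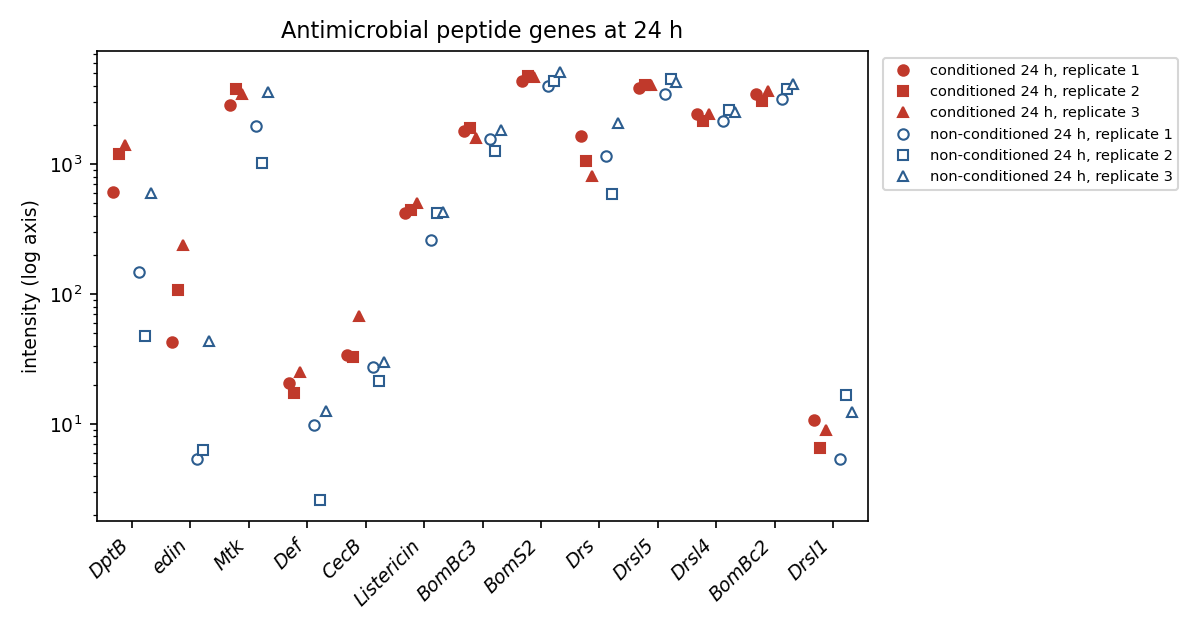
Deposited intensity (log axis) of the 13 tested antimicrobial peptide genes in each conditioned (filled) and non-conditioned (open) array at 24 h, ordered by the difference between the groups. In DptB the conditioned arrays (609 to 1399) lie above the non-conditioned ones (47.5 to 597), while in Drs (814 to 1656 against 584 to 2075) and the genes right of it the groups overlap.

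The spread of these genes lay mainly in the non-conditioned arrays. The median deviation of the 13 genes from the mean of the 6 arrays was 0.044, 0.065 and 0.052 in the conditioned arrays, against -0.198, -0.380 and 0.131 in the non-conditioned arrays. Non-conditioned replicate 2 was the lowest array for 6 of the 13 genes and replicate 1 for 5. Conditioned replicate 3, the array without yolk signal, was the highest for 5. With 1 conditioned and 3 non-conditioned arrays left at 24 h after removal of the yolk arrays, the median difference of the list was -0.034, while DptB and edin had 2.04 and 2.32.

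Further large differences belonged to probe sets without a gene name here. Probe set 1627551_s_at had intensities of 100, 188 and 854 in conditioned heads, against 34.9, 1.52 and 95.6 in non-conditioned heads, a difference of 2.56 ± 0.41 (adjusted p = 0.108). Probe set 1625124_at had 33.2, 53.4 and 220 in conditioned heads, against 12.8, 14.9 and 25.1 in non-conditioned heads, a difference of 1.49 ± 0.26 (adjusted p = 0.108). In both, conditioned replicate 3 was the brightest array and the groups did not overlap. Probe set 1641419_at had 1069, 2555 and 2862 in conditioned heads, against 439, 201 and 1535 in non-conditioned heads, a difference of 1.90 ± 0.38 (adjusted p = 0.285), and its groups overlapped through non-conditioned replicate 3. The only probe set more than 2-fold lower, 1629530_at, had 25.3, 30.5 and 21.5 in conditioned heads, against 98.3, 18.7 and 270 in non-conditioned heads, and overlapped.

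Genes that sense microbes or carry the signal were counted next. Of 24 tested recognition and signalling genes, 2 had an unadjusted p under 0.05 and were higher, beside 2.23% of all probe sets, 0 were lower, beside 2.10%, and the median was 0.021. PGRP-SC2, which encodes a peptidoglycan amidase that dampens Imd signalling, had 67.6, 84.2 and 76.0 in conditioned heads, against 34.8, 28.0 and 73.3 in non-conditioned heads. Only non-conditioned replicate 3 reached the conditioned range, and the difference was 0.65 ± 0.30, or 0.30 without the arrays with yolk signal. PGRP-SB1, another peptidoglycan recognition gene, had 2154, 2286 and 2981 in conditioned heads, against 2120, 1300 and 2515 in non-conditioned heads, a difference of 0.36 ± 0.16. For PGRP-SB1 it was 0.11 without non-conditioned replicate 2 and 0.50 without the arrays with yolk signal. IKKbeta, the kinase gene of the Imd branch, had a difference of 0.15 ± 0.08, or 0.22 without those arrays, and its groups did not overlap. Among 20 serpin and clip protease genes, which control the proteolytic cascades of Toll and melanization, the median was -0.01, and Spn47C and Hayan had 0.14 ± 0.07 and 0.15 ± 0.09. Without the arrays with yolk signal Spn47C had 0.01 and Hayan 0.13.

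Of 10 haemocyte genes 7 lay above 0, with a median of 0.059. Hml, the hemolectin gene of circulating blood cells, had a difference of 0.13 ± 0.06, PPO1, a prophenoloxidase gene, 0.14 ± 0.08, and the phagocytic receptor gene eater 0.17 ± 0.14. None of the 10 had an unadjusted p under 0.05. Whether the blood cell share moved with the peptide genes was not tested. The stress-induced gene TotC had 374, 554 and 189 in conditioned heads, against 253, 957 and 252 in non-conditioned heads, so both groups spread widely, and the difference was -0.21 ± 0.30. Diedel, an immune-modulating cytokine gene, had 15.9, 12.6 and 24.2 in conditioned heads, against 20.1, 10.3 and 15.8 in non-conditioned heads, a difference of 0.09 ± 0.58. Both genes were lower in conditioned heads at 0 h, by -1.68 ± 0.30 for TotC and -2.74 ± 0.58 for Diedel (adjusted limma p of 0.0157 and 0.0474).

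The same genes were set beside the comparison at 0 h, which shares no arrays with the one at 24 h. The effect of conditioning on DptB was -0.47 ± 0.42 at 0 h, and the effect at 24 h minus that at 0 h was 2.94 ± 0.60 (adjusted p = 0.12 for the interaction). For edin the effect at 0 h was -1.63 ± 0.62 and the interaction 3.64 ± 0.88 (adjusted p = 0.213). For PGRP-SC2 the effect at 0 h was -1.32 ± 0.30 and the interaction 1.97 ± 0.42 (adjusted p = 0.129). Mtk and Def had -0.37 and -0.60 at 0 h. The median of the 13 peptide genes was 0.197 at 24 h and -0.168 at 0 h. No probe set passed an adjusted p of 0.05 for the interaction (0 of 11261, 0%), while 810 had an unadjusted p under 0.05, and none of these differences between times was therefore called.

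Tests of the difference between the times gave an adjusted p of 0.0512 for tobi, bmm and probe set 1627551_s_at, and of 0.0664 for CG7408, alpha-Est2 and probe set 1625124_at. The gene tobi, an alpha-glucosidase gene that responds to insulin and glucagon-like signals, had 487, 534 and 473 in conditioned heads, against 446, 369 and 364 in non-conditioned heads at 24 h. All conditioned arrays lay above all non-conditioned ones, the difference was 0.34 ± 0.09 (unadjusted p = 0.00169), and the interaction was 0.83 ± 0.13. At 0 h tobi was lower in conditioned heads, by a difference of -0.49 ± 0.09 (adjusted p = 0.0163 with limma). The triglyceride lipase gene bmm had 454, 449 and 514 in conditioned heads, against 460, 357 and 420 in non-conditioned heads, a difference of 0.19 ± 0.08 with overlap and an interaction of 0.75 ± 0.12. At 0 h the difference of bmm was -0.55 ± 0.08 (adjusted p = 0.00658 with limma), larger than that at 24 h. CG7408 had 39.5, 41.2 and 50.4 in conditioned heads, against 29.5, 19.7 and 30.0 in non-conditioned heads, a difference of 0.50 ± 0.13 without overlap, -0.53 ± 0.13 at 0 h (adjusted p = 0.0771) and an interaction of 1.03 ± 0.18. The carboxylesterase gene alpha-Est2 had a difference of 0.22 ± 0.06, -0.22 ± 0.06 at 0 h (adjusted p = 0.102) and an interaction of 0.44 ± 0.08. For probe sets 1627551_s_at and 1625124_at the effects at 0 h were -0.97 ± 0.41 and -0.59 ± 0.26, and the interactions 3.53 ± 0.58 and 2.07 ± 0.37. Of the 23 tested nutrient, lipid and insulin genes, tobi, bmm and fit had an unadjusted p under 0.05. All 3 were higher, beside 2.23% of all probe sets, 0 were lower, and the median of the 23 was 0.038.

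Clock genes gave small differences, and none passed the test after adjustment. In the clock, Clk and cyc activate per and tim, whose proteins return to repress them, while vri, Pdp1 and cwo form further loops. Of 19 listed genes, 14 had a probe set annotated with that gene alone, and these were tested. Of these, 5 had an unadjusted p under 0.05 and were lower, where 2.10% of all probe sets were, and 0 were higher. The median of the 14 was -0.096, with 10 below 0 and 4 above. The conditioned arrays lay below the others without overlap in 3 genes, tim, Pdfr and dco, beside 5.16% of all probe sets.

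The repressor gene tim, on chromosome 2L, had 648, 577 and 671 in conditioned heads, against 803, 744 and 714 in non-conditioned heads. The groups did not overlap, and the difference was -0.25 ± 0.07 (interval -0.39 to -0.11, unadjusted p = 0.00175), while its other probe set had -0.04. Its partner per, on X, had 148, 149 and 196 in conditioned heads, against 227, 178 and 209 in non-conditioned heads. Conditioned replicate 3, the array without yolk signal, lay within the non-conditioned range of per. The difference was -0.30 ± 0.10 (interval -0.50 to -0.09), and without the 3 arrays with yolk signal it was -0.08 for per and -0.14 for tim. For the other probe set of tim it was -0.32 without them.

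The other members with low p were the repressor gene cwo, the neuropeptide receptor gene Pdfr and the kinase gene dco, whose product phosphorylates the Per protein. Intensities of cwo were 409, 357 and 367 in conditioned heads and 491, 408 and 424 in non-conditioned heads, with a difference of -0.21 ± 0.07 and of 0.02 in its other probe set. Without the arrays with yolk signal these were -0.23 and 0.01. Pdfr had 100, 95.2 and 107 in conditioned heads, against 131, 111 and 115 in non-conditioned heads, a difference of -0.21 ± 0.08, and of -0.09 without the arrays with yolk signal. For dco the values were 693, 673 and 679 in conditioned heads and 750, 769 and 716 in non-conditioned heads, a difference of -0.12 ± 0.05, and of -0.08 without those arrays. In cwo and Pdfr non-conditioned replicate 1 was the brightest array.

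The activators and the second loop had values nearer to 0 at 24 h. Clk and Pdp1 both had -0.01, with intervals of -0.22 to 0.20 and -0.17 to 0.15, and cyc had 0.01 (interval -0.16 to 0.18). The difference was -0.07 for vri, -0.12 for the photoreceptor gene cry, and -0.18 ± 0.12 for Pdf, the peptide of the main clock neurons. Without the arrays with yolk signal it was -0.22 for vri, 0.03 for cry and -0.16 for Pdf. Non-conditioned replicate 1 was the highest array for 7 of the 14 genes and conditioned replicate 2 the lowest for 6. The list's median was -0.070 without the arrays with yolk signal, and -0.046 in the comparison at 0 h. Single genes had larger differences at 0 h than at 24 h: cwo had -0.49 ± 0.07 and vri -0.30 ± 0.06, with adjusted limma p of 0.00658 and 0.0486. The gene tim had -0.22 ± 0.07 at 0 h, while Clk, at 0.10 ± 0.10, and several others lay above 0. The labels do not give the hour of day at which heads were taken.

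The transcription factor gene lola, on 2R, makes many proteins that share a dimerization domain and differ in their zinc fingers through alternative splicing, and is known for axon guidance. It had 15 tested probe sets, of which 8 lay above 0 and 7 below, between -0.44 and 0.23. Probe set 1641609_at had 145, 149 and 113 in conditioned heads, against 190, 207 and 170 in non-conditioned heads. The groups did not overlap, and conditioned replicate 3 was the lowest of all. Its difference was -0.44 ± 0.07 (interval -0.59 to -0.28, unadjusted p = 1.96e-05, adjusted p = 0.108), against 0.09 ± 0.07 at 0 h, and without the 3 arrays with yolk signal it was -0.49. The interaction was -0.53 ± 0.10 (adjusted p = 0.107). Probe set 1640945_at had -0.18 (unadjusted p = 0.0373), 1635096_at had 0.23 ± 0.13, and the brightest, 1634495_s_at, with 305, 310 and 265 in conditioned and 284, 275 and 264 in non-conditioned heads, had 0.09 ± 0.09. Which isoform each probe set reads was not analysed here.

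No memory gene passed the test, and the differences of the best known ones were small. The adenylyl cyclase gene rut had 177, 195 and 183 in conditioned heads, against 231, 169 and 195 in non-conditioned heads, a difference of -0.08 with an interval of -0.27 to 0.11. The phosphodiesterase gene dnc had 126, 119 and 126 in conditioned heads, against 138, 118 and 120 in non-conditioned heads, a difference of -0.02 with an interval of -0.19 to 0.16. In both genes non-conditioned replicate 1 was the brightest array. CrebB, the cAMP-responsive transcription factor gene, was dim, with 14.2, 13 and 23.1 in conditioned heads, against 20.5, 26.8 and 17.6 in non-conditioned heads. Its difference was -0.20 with an interval of -0.54 to 0.13, and its other probe set had -0.07. Its coactivator gene nej had 0.17 ± 0.09 and the neurofibromin gene Nf1 0.07 ± 0.06. Of the 9 tested cAMP genes, 0 had an unadjusted p under 0.05, and the median was -0.018.

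Of 20 tested memory genes outside the cAMP pathway, 1 was higher and 2 were lower at an unadjusted p under 0.05. Over all probe sets the shares were 2.23% and 2.10%, and the median of the 20 was -0.001. The radish gene rsh, needed for anaesthesia-resistant memory, had 110, 98.9 and 117 in conditioned heads, against 73.0, 81.2 and 107 in non-conditioned heads. Its difference was 0.28 ± 0.09, or 0.24 without the arrays with yolk signal, and its other probe set had -0.24. The integrin gene mys had 373, 330 and 353 in conditioned heads, against 481, 462 and 387 in non-conditioned heads, without overlap. The difference of mys was -0.32 ± 0.09 and -0.14 in its other probe set, and it was -0.07 without the arrays with yolk signal. The gene stau, which encodes an RNA-binding protein of local translation, had 295, 286 and 279 in conditioned heads, against 358, 320 and 300 in non-conditioned heads, a difference of -0.17 ± 0.08 without overlap, and of -0.07 without the arrays with yolk signal. The translation regulator gene orb2 had 156, 124 and 143 in conditioned heads, against 173, 131 and 165 in non-conditioned heads, a difference of -0.13 with an interval of -0.34 to 0.08.

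**Figure D4:**
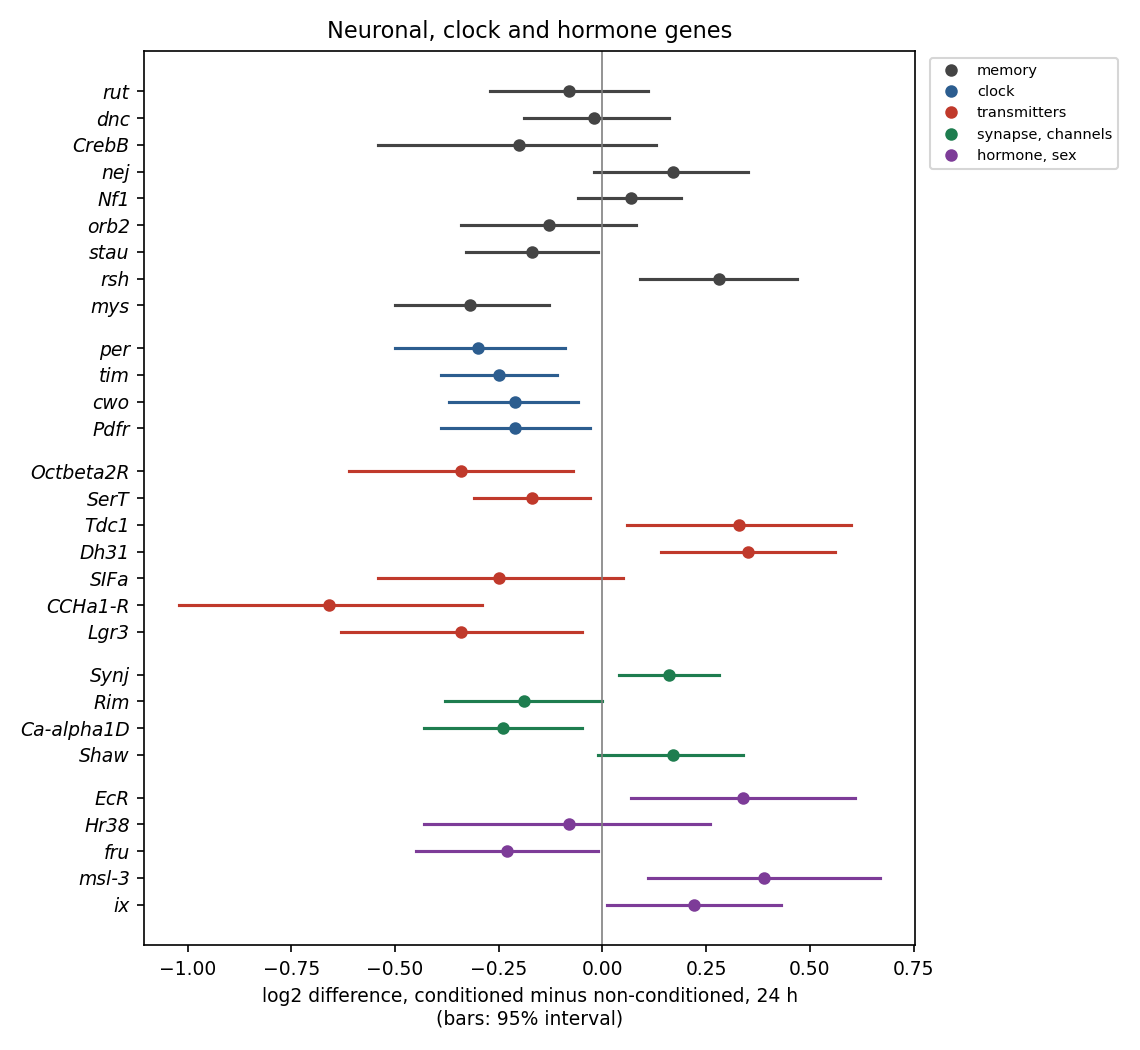
Difference at 24 h (conditioned minus non-conditioned, log2, points) with its 95% interval (bars) for 29 genes of memory, the clock, transmitters and peptides, synapse and channels, and hormone and sex pathways, each by its brightest probe set. The intervals of rut (-0.27 to 0.11) and dnc (-0.19 to 0.16) span 0, and CCHa1-R at -0.66 is the farthest from 0.

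Among 25 neuropeptide genes, Dh31 had an unadjusted p under 0.05, and the median was -0.029. Dh31, the diuretic hormone peptide gene of clock neurons and gut cells, had 567, 574 and 516 in conditioned heads, against 368, 475 and 454 in non-conditioned heads. The groups did not overlap, and the difference was 0.35 ± 0.10 at 24 h and 0.39 ± 0.10 at 0 h (adjusted p = 0.0954 at 0 h). Without the arrays with yolk signal it was 0.22 at 24 h. The corazonin gene Crz had a difference of 0.16 ± 0.09. SIFa, a peptide gene of a few brain neurons, had 89.4, 105 and 131 in conditioned heads, against 168, 118 and 111 in non-conditioned heads, a difference of -0.25 ± 0.14 that became 0.21 without the arrays with yolk signal.

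Of 18 peptide receptor genes, 3 were lower at an unadjusted p under 0.05, beside 2.10% of all probe sets, 0 were higher, and the median was -0.07. CCHa1-R, which encodes a receptor of the CCHamide-1 peptide, had 12.6, 2.74 and 11.8 in conditioned heads, against 26.3, 24.8 and 17.9 in non-conditioned heads. The groups did not overlap, and all 6 arrays were dim. The difference was -0.66 ± 0.17, and it was -0.25 with an offset of 64 and -1.45 with an offset of 1. Lgr3, the receptor gene of a relaxin-like peptide, was as dim, with 8.20, 9.01 and 13.4 in conditioned heads and 17.3, 13.5 and 21.0 in non-conditioned heads, a difference of -0.34 ± 0.14. The third was Pdfr, given with the clock genes.

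Transmitter genes differed in single members. Of 22 genes of monoamine synthesis, transport and reception, 1 was higher and 2 were lower at an unadjusted p under 0.05. Over all probe sets the shares were 2.23% and 2.10%, and the median of the 22 was 0.022. The octopamine receptor gene Octbeta2R had 24.8, 21.1 and 24.2 in conditioned heads, against 35.0, 34.7 and 31.7 in non-conditioned heads. Its difference was -0.34 ± 0.13 without overlap, -0.20 without the arrays with yolk signal, and -0.04 in its other probe set. The serotonin transporter gene SerT had 150, 143 and 147 in conditioned heads, against 168, 172 and 160 in non-conditioned heads, a difference of -0.17 ± 0.07 without overlap. For SerT it was -0.16 without the arrays with yolk signal. Tdc1, a tyrosine decarboxylase gene, had 89.7, 119 and 84.3 in conditioned heads, against 64.3, 74.2 and 84.0 in non-conditioned heads, a difference of 0.33 ± 0.13 that became -0.01 without the arrays with yolk signal.

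Genes of the synapse and of ion channels were centred on 0, with medians of 0.006 over 19 release genes and -0.009 over 24 channel genes. Synj, the synaptojanin gene of vesicle recycling, had 771, 828 and 745 in conditioned heads, against 668, 737 and 685 in non-conditioned heads, a difference of 0.16 ± 0.06 without overlap, and of 0.08 without the arrays with yolk signal. The active zone gene Rim had 227, 212 and 236 in conditioned heads, against 301, 240 and 238 in non-conditioned heads, a difference of -0.19 ± 0.09, and its 3 probe sets lay between -0.19 and 0.03. The calcium channel gene Ca-alpha1D had 210, 208 and 196 in conditioned heads, against 297, 226 and 218 in non-conditioned heads, a difference of -0.24 ± 0.09 without overlap. In Rim and Ca-alpha1D the groups were separated mostly by non-conditioned replicate 1, without which they had -0.07 and -0.11. The potassium channel genes Shaw and Irk3 had 0.17 ± 0.08 and 0.16 ± 0.08. No member of the 13 activity-regulated genes, among them Hr38 at -0.08 (interval -0.43 to 0.26), had an unadjusted p under 0.05.

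Of 15 tested genes of ecdysone response and synthesis, only EcR had an unadjusted p under 0.05. EcR encodes the receptor of this steroid hormone and had 168, 158 and 152 in conditioned heads, against 132, 104 and 134 in non-conditioned heads. The groups did not overlap, and the difference was 0.34 ± 0.13 (interval 0.07 to 0.61), or 0.10 without the arrays with yolk signal. The ecdysone-inactivating P450 gene Cyp18a1 had -0.12 ± 0.08 and the nuclear receptor gene ftz-f1 0.10 ± 0.07. For Cyp18a1 the difference at 0 h was -0.41 ± 0.08 (adjusted p = 0.0177 with limma). Non-conditioned replicate 1 was the highest array for 10 of the 15 genes.

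Of 12 sex determination and dosage compensation genes, 2 were higher and 1 was lower at an unadjusted p under 0.05, beside 2.23% and 2.10% of all probe sets. The gene msl-3, which encodes a subunit of the complex that raises transcription of the male X chromosome, had 188, 165 and 176 in conditioned heads, against 111, 134 and 151 in non-conditioned heads. Its groups did not overlap, and its other probe set had 0.15 at 24 h. The difference was 0.39 ± 0.13 at 24 h and 0.39 ± 0.13 at 0 h, and at 24 h it was 0.17 without the arrays with yolk signal. The gene ix, which acts with doublesex in females, had 71.6, 79.7 and 69.7 in conditioned heads, against 61.5, 61.5 and 59.6 in non-conditioned heads, a difference of 0.22 ± 0.10 without overlap, and of 0.09 without those arrays. The courtship gene fru had 142, 167 and 144 in conditioned heads, against 218, 161 and 166 in non-conditioned heads, a difference of -0.23 ± 0.10. For fru it was -0.21 without the arrays with yolk signal. Of its 6 probe sets 5 lay below 0 and 1 above, between -0.23 and 0.34, and conditioned replicate 2 reached the non-conditioned range of the brightest.

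Detoxification genes had more members higher than lower. Of 68 cytochrome P450 genes, 7 had an unadjusted p under 0.05 and were higher, beside 2.23% of all probe sets, 0 were lower, and 43 lay above 0 and 25 below with a median of 0.033. Without the arrays with yolk signal 36 lay above 0 and 32 below. Cyp4g1, which makes the cuticular hydrocarbons in oenocytes, had 12.3, 47.0 and 58.5 in conditioned heads, against 15.1, 10.7 and 2.11 in non-conditioned heads. Conditioned replicate 1 lay within the non-conditioned range, all arrays were dim, and the difference was 1.05 ± 0.33. Cyp6d2 had 136, 123 and 121 in conditioned heads, against 105, 90.7 and 98.1 in non-conditioned heads, a difference of 0.33 ± 0.11 without overlap. Cyp4ac1 had a difference of 0.17 ± 0.06 without overlap. Among 50 transferase genes, 1 was higher (Ugt37A3 at 0.37 ± 0.15) and 1 was lower (Ugt305A1 at -0.59 ± 0.17, with 8.92, 1.89 and 2.59 in conditioned and 18.1, 15.7 and 10.2 in non-conditioned heads). For Ugt37A3 the difference at 0 h was 0.92 ± 0.15 (adjusted p = 0.0088 with limma).

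Of 22 muscle genes 17 lay below 0 and 5 above, with a median of -0.057, and none passed after adjustment. Mlc1, a myosin light chain gene, had 887, 898 and 939 in conditioned heads, against 1010, 1180 and 1043 in non-conditioned heads, a difference of -0.24 ± 0.07. Obsc, which encodes a giant sarcomere protein, had 163, 164 and 167 in conditioned heads, against 194, 171 and 199 in non-conditioned heads, a difference of -0.17 ± 0.07. These 2 genes had an unadjusted p under 0.05 and were lower, beside 2.10% of all probe sets. Of 10 heat shock genes, Hsp26, at 0.21 ± 0.09, and Hsp68, at 0.26 ± 0.11, had an unadjusted p under 0.05. Over all probe sets 2.23% were higher at that p, and the median of the 10 genes was -0.032.

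In genes of respiration and of the ribosome, the arrays of non-conditioned heads were on opposite sides of the conditioned ones. Of 57 oxidative phosphorylation genes, 48 lay below 0 with a median of -0.046, and ND-B14, a complex I subunit gene, at -0.18 ± 0.06, was the one with an unadjusted p under 0.05. The median deviation of this list was -0.064, 0.011 and -0.017 in the conditioned arrays, against -0.103, 0.145 and 0.031 in the non-conditioned arrays. Non-conditioned replicate 2 was the highest array for 45 of the 57 genes and non-conditioned replicate 1 the lowest for 32. Without non-conditioned replicate 2 the median of the list was 0.028. For 35 ribosomal protein genes the median was -0.036, and 0.092 without that array, which was the highest for 32 genes, while non-conditioned replicate 1 was the lowest for 29. RpS21, the one with an unadjusted p under 0.05, had 2615, 2861 and 3232 in conditioned heads, against 3228, 3622 and 3336 in non-conditioned heads, a difference of -0.23 ± 0.08. For RpS21 it was -0.15 without conditioned replicate 1 and -0.05 without the arrays with yolk signal. In integrin and adhesion genes non-conditioned replicate 1 was instead the highest array for 13 of 18 genes.

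**Figure D5:**
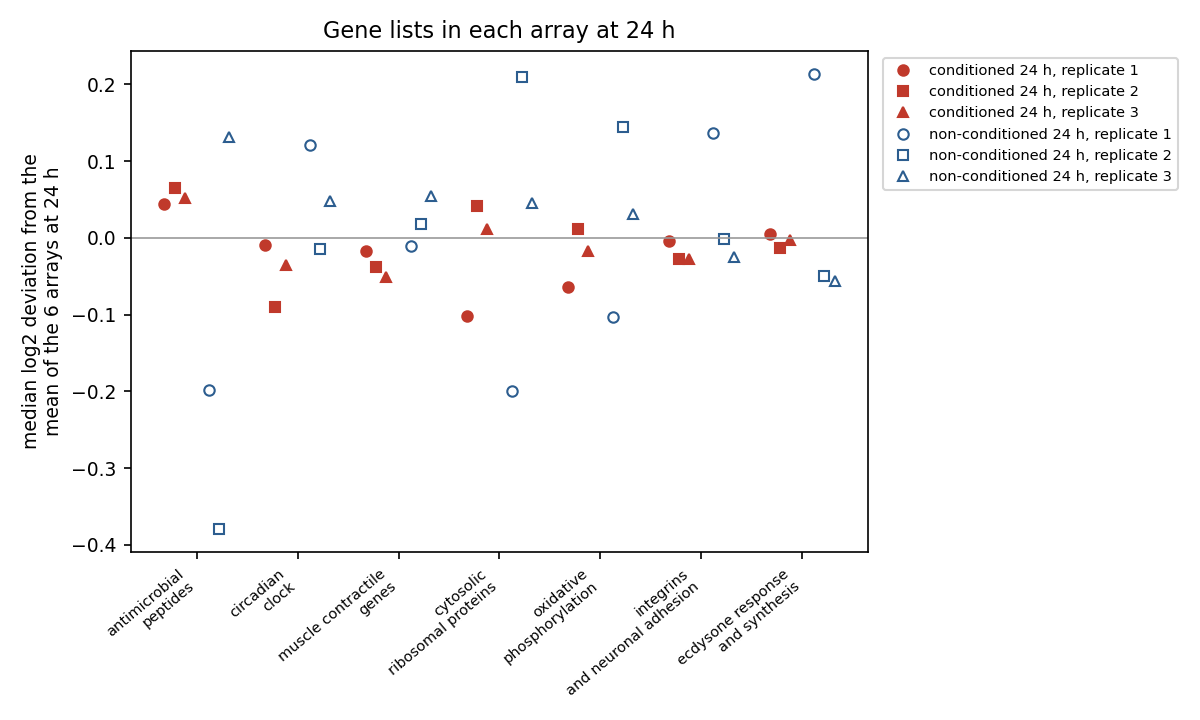
Median deviation of 7 gene lists from the mean of the 6 arrays at 24 h (log2, y axis), 1 point for each conditioned (filled) and non-conditioned (open) array. Conditioned arrays lie close to 0 in most lists, and non-conditioned replicates 1 and 2 lie on opposite sides in the ribosomal (-0.200 and 0.209) and oxidative phosphorylation lists (-0.103 and 0.145).

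Outside the lists, the genes of lowest p whose groups did not overlap had small differences. On the higher side they were CG10352 (0.26 ± 0.06), CG1663 (0.44 ± 0.12), CG13014 (0.41 ± 0.11), CG10562 (0.29 ± 0.08), the cadherin gene stan (0.26 ± 0.07), Arts (0.22 ± 0.06) and CG6985 (0.42 ± 0.12), with unadjusted p of 0.000776 to 0.00336. The values of CG10352 were 218, 231 and 219 in conditioned heads and 182, 176 and 190 in non-conditioned heads, tight within each group. Those of stan, which patterns axons and planar polarity, were 128, 125 and 132 in conditioned heads and 105, 100 and 108 in non-conditioned heads. On the lower side were CG7829 (-0.23 ± 0.06, and -0.13 in its other probe set), CG14277 (-0.25 ± 0.06), CG33228 (-0.35 ± 0.09), CG10958 (-0.33 ± 0.09), Pat1 (-0.22 ± 0.06) and the dim CG13443 (-0.54 ± 0.15). CG14277 had 1119, 1248 and 1148 in conditioned heads, against 1303, 1516 and 1365 in non-conditioned heads. CG10958 had 39.8, 40.4 and 38.3 in conditioned heads, against 52.6, 56.5 and 52.7 in non-conditioned heads. All of these had an adjusted p of 0.999. Without the arrays with yolk signal CG1663 had 0.28, CG10562 0.22, Arts 0.07, CG33228 -0.19 and Pat1 -0.12, all smaller. The others changed little, with CG10352 at 0.23, stan at 0.29, CG6985 at 0.44 and CG7829 at -0.25. CG14277 had -0.25, CG10958 -0.35 and CG13443 -0.50.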

How the data were processed

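The deposited values are linear intensities of 12 arrays, and each column has its sample. The program with which the authors made these intensities is not given in the sources used here. A 2%-trimmed mean of 150 was found on every array, with medians of 19.87 to 21.78, so the arrays had been scaled before deposit. The number of arrays limits the precision. Values were used as log2(intensity + 16), without further normalization. The upper 60% by mean over 12 arrays were kept, down to a mean intensity of 8.13. limma 3.58.1 in R 4.3.3 fitted 4 group means and a term for the title form (with or without #), with eBayes and a trend. There were 7 residual degrees of freedom, and 15.7 in total at the median. Tests were two-sided, with Benjamini-Hochberg adjustment over 11261 probe sets. Tables and plots were made with Python 3.11.15 and pandas 2.3.3. The fit was also run on simulated data with independent normal noise for each probe set, without shifts shared by many genes of an array. That run cannot show how such shared shifts affect the calls.

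Gene names are those of GEO's platform annotation, updated by gene identifier with RefSeq (assembly Release 6 plus ISO1 MT). Of 18769 probe sets, 13647 had 1 symbol (13544 found in that table), 402 had several and 4720 had none. In lists, the brightest probe set stands for a gene. Named were, per direction, the 12 probe sets of lowest p without overlap between groups, up to 3 of lowest p in each of 37 lists, and per, tim, rut, dnc, CrebB, orb2, EcR, Hr38, fru, DptB, lola, Yp1 to Yp3 and fit, 129 probe sets in all; the unnamed probe sets, the array patterns, the remaining peptide and clock genes, Lsp2 and apolpp were chosen after their values were seen. The members and lists and the rule were chosen with earlier results of these data known. Alternatives were the title term, the # arrays, the 6 arrays at 24 h, quantile normalization, median centring, offsets of 1 and 64, other filters, no trend, array weights, each array left out, and the arrays with Yp1 above 1000 left out.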

Additional observations from a re-analysis of the deposited data

How the results depend on the processing

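The count of 0 calls at 24 h became 8 in the # arrays alone, 1 with the 6 arrays at 24 h, 3 with array weights and 2 without the arrays with yolk signal. With 1 array left out in turn it was 0 to 6, with 6 without conditioned replicate 3, 2 without conditioned replicate 1 or non-conditioned replicate 3, and 1 without non-conditioned replicate 3 at 0 h. It stayed at 0 under the other settings. The 0 calls of the interaction became 2 without the title term, 6 in the # arrays alone, 3 with quantile normalization, 6 with median centring, 4 with an offset of 64, 1 without a filter, 21 with array weights, 3 without the arrays with yolk signal, and 0 to 8 with 1 array left out. Fits without those arrays keep 1 conditioned array at 24 h and take its spread from the other groups. Of 129 named probe sets, 109 kept their sign under each setting that gave them a value (all 18 settings for 95, while the filter for the upper 40% removed the other 34). Those that turned without the arrays with yolk signal were CrebB (0.09), Tdc1 (-0.01), SIFa (0.21), Acp62F (-0.28), Desat1 (-0.20), Hsc70-5 (0.04), fit (-0.24), Rbp9 (-0.01), onecut (-0.18), Obp99a (-0.10), Obp56e (-0.20), Gr61a (-0.08), Cpr47Ef (-0.02) and dnc (0.07). In the # arrays alone bond (-0.01) and Diedel (-0.03) turned, and with array weights Diedel (-0.17), dnc (0.01) and Hr38 (0.07). With 1 array left out in turn, TotC ranged from -0.72 to 0.27, dome from -0.09 to 0.02, Diedel from -0.39 to 0.41, rut from -0.18 to 0.04, dnc from -0.06 to 0.05 and Hr38 from -0.23 to 0.10. The causes were not tested. No paired analysis was possible because the replicate numbers only follow the order of the series.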

Other observations

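Sensory and surface genes of the head gave few differences at 24 h. Of 26 odorant binding protein genes, 2 were higher and 3 were lower in conditioned heads at an unadjusted p under 0.05. Over all probe sets the shares were 2.23% and 2.10%, and the median of the 26 was -0.036. The 2 higher ones, Obp99a and Obp56e, were bright in the arrays with yolk signal. Obp56g had 1780, 1900 and 1930 in conditioned heads, against 1919, 2277 and 2338 in non-conditioned heads, a difference of -0.21 ± 0.07. None of 29 odorant receptor genes and none of 16 gustatory and ionotropic receptor genes had an unadjusted limma p under 0.05, and most were dim, such as Or88a at 12.9 ± 3.38 in conditioned and 8.18 ± 4.07 in non-conditioned heads (SD, n = 3 each). Of 17 phototransduction genes 12 lay below 0 with a median of -0.02, among them rdgB at -0.16 ± 0.08, and none had an unadjusted p under 0.05.

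Among 46 cuticle protein genes the median was 0.004, and Cpr100A, at -0.14 ± 0.06, was the one with an unadjusted p under 0.05. Of 27 proteasome genes 19 lay above 0 with a median of 0.026, with Prosalpha4 at 397, 422 and 372 in conditioned heads, against 345, 347 and 361 in non-conditioned heads, a difference of 0.17 ± 0.07. Of 15 glial genes 8 lay below 0 and 7 above, and repo, the glial transcription factor gene, had 370, 338 and 368 in conditioned heads, against 427, 372 and 424 in non-conditioned heads, a difference of -0.18 ± 0.08. Of 10 neuronal genes 9 lay above 0 with a median of 0.07, and none had an unadjusted p under 0.05.

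Single arrays stood far from the others of their group in a few transcripts beside the yolk genes. A range within the group of more than 1 on the log2 scale was found for 34 probe sets in conditioned and 41 in non-conditioned heads. CG4757 had 930, 1065 and 1191 in conditioned heads, against 882, 330 and 2088 in non-conditioned heads. CG13428 had 117, 10.6 and 32.7 in conditioned heads, against 15.7, 29.1 and 120 in non-conditioned heads. CG31495 had 46.0, 43.8 and 5.32 in conditioned heads, against 57.5, 33.6 and 44.5 in non-conditioned heads, and kel had 305, 286 and 249 in conditioned heads, against 107, 323 and 241 in non-conditioned heads. These 4 genes were chosen after their values were seen.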
